A study of Mus musculus with 6 samples.

Results

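The imprinted growth-control genes examined here are H19, Igf2, Meg3, Rian, Dlk1, Peg3, Mest, Plagl1, Grb10 and Cdkn1c. They were taken by gene name from a table of 54532 genes, in which each of the 10 names occurs in a single row. All samples are wild-type (WT) 3T3, a line of mouse fibroblasts that can be turned into fat cells and that the labels call adipocytes. DMSO, the solvent, was given to 3 samples, and 200 µM baicalin, a flavone glucuronide from plants, to the other 3. Neither the subline, nor how the cells were differentiated, nor how long they were treated is given in the sources used here. Whether replicates of a group were grown separately is not stated either. The p-values therefore describe the spread between these samples only, which may be technical. Library totals ran from 16730594 to 18326874 reads, so that 3 reads, taken as the limit that a count of 0 allows, correspond to at most 0.179 CPM (reads of a gene scaled to a common library size). Such limits cover counting error only.

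Of the 9 fat cell markers checked against the label, Fabp4 and Lpl were abundant. Lep had 2 reads in all libraries together and Slc2a4 had 6. The 9 markers summed to between 1785 and 1959 CPM in DMSO and between 787 and 803 CPM in baicalin. Of the 9, 5 could be tested and were called lower (Adipoq, Fabp4, Plin1, Cidec and Lpl, with a median log2 fold change of -1.67), where 34.1% of all tested genes were called lower. Adipoq passed the filter on low counts only through the DMSO libraries. With no filter, and with DESeq2, 6 of the 9 were lower and 1 was higher, which was Retn (2, 0 and 2 reads under DMSO, against 13, 7 and 8 under baicalin). Each of these fits took in 27246 genes. With no filter 4656 of those were called lower and 4911 higher, and with DESeq2 4081 lower and 4196 higher. None of the 9 was without a read throughout. The 9 fibroblast and preadipocyte markers summed to between 9740 and 10142 CPM in DMSO and between 9989 and 10198 CPM in baicalin, and none of them was at 0 in all libraries. Of 7 tested there, 4 were higher and 3 lower, where 33.6% of all tested genes were called higher and 34.1% lower. Among the 7 were Ly6a (log2 fold change 1.91), Thy1 (1.09) and Pdgfra (-1.13). Leukocyte markers summed to at most 6.17 CPM in any library, with Cd68 higher in baicalin (1.08, a call lost without baicalin replicate 3), and none of the 6 was at 0 throughout. Epcam, Cdh1, Myod1 and Myog had no read, and the sum of the endothelial, epithelial and muscle markers, between 6.93 and 8.88 CPM in DMSO and between 15.6 and 16.8 CPM in baicalin, came mostly from the intermediate filament gene Des. The part of these shifts in the results that follow was not tested, and fewer cells of a type and less RNA per cell cannot be told apart in such bulk samples.

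Imprinted genes are expressed mainly from the copy inherited from one parent, under the control of germline DNA methylation marks. Many act on fetal and placental growth, and as a textbook rule paternally expressed genes such as Igf2 and Dlk1 promote growth while maternally expressed genes such as H19, Grb10 and Cdkn1c restrain it. In fat tissue DLK1, also called preadipocyte factor 1, is the classical marker of the preadipocyte and holds back fat cell formation, while MEST and PEG3 have been tied to fat mass in mice. Read counts per gene do not say which parental copy an RNA came from.

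Dlk1 and Peg3 are the members with more than trace numbers of reads, and Meg3 is the maternally expressed neighbour of Dlk1 on chromosome 12. Their promoter windows are shown so that the active members can be set beside a member that is nearly silent in the same cluster. The windows run from 250 bases before to 50 bases after the start in RefSeq (build GRCm38.p6, the assembly of mm10), 5′ to 3′ on the gene's strand. They lie at chr12:109452573-109452872 (plus strand), chr7:6730370-6730669 (minus strand) and chr12:109540746-109541045 (plus strand). Capitals mark matches, on either strand, to TGACGTCA, the palindromic cAMP response element, and to GCGTG, which reads as CACGC on the other strand, the core bound by the aryl hydrocarbon receptor.
Dlk1: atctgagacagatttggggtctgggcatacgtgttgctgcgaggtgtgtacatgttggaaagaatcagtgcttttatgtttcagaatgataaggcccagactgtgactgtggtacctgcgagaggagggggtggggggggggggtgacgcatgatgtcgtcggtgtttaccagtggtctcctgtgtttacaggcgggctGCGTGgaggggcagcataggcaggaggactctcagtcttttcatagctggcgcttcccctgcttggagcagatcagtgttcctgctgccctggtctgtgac
Peg3: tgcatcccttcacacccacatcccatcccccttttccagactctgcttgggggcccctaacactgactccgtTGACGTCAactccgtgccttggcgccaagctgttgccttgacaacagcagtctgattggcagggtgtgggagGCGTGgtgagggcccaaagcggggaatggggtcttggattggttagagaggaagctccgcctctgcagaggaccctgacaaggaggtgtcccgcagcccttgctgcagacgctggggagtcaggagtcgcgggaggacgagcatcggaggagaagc
Meg3: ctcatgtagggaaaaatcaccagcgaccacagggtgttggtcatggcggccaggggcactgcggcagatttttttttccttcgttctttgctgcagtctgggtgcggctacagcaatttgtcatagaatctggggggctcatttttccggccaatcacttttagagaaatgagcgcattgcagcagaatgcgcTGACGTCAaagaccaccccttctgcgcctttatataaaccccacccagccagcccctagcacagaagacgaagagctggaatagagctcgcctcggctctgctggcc

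TGACGTCA occurs in the Peg3 window and in this Meg3 window, once each, and in 1.79% of the 32851 windows of all genes. GCGTG occurs once each in the Dlk1 and Peg3 windows and in 32.4% of all windows. TGACNNNGC, the core of the antioxidant response element, occurs in none of these 3 windows and in 12.4% of all, and TATAAA occurs in the Meg3 window and in 13.6% of all. The 3 windows hold 9, 13 and 13 CG dinucleotides, where the median of all windows is 7. A match of letters is a description and not a site of binding. RefSeq windows were found for 8 of the 10 members. H19 and Cdkn1c have no entry in that table.

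The set divided by level into a single abundant transcript, a moderate transcript, a pair near the limit of testing and 6 that were nearly or wholly silent. On the deposited FPKM scale (fragments scaled by gene length and library size, so that genes can be compared), Dlk1 stood at 231 ± 20.1 in DMSO and Peg3 at 4.03 ± 0.23 (SD, n = 3 each). Mest followed at 0.216 ± 0.067 and Grb10 at 0.0775 ± 0.0268. In each group every library of Dlk1 lay above every library of Peg3, Peg3 above Mest, and Mest above Grb10. Cdkn1c, H19, Igf2, Rian, Meg3 and Plagl1 had at most 0.112 FPKM in any library, and each had at least 1 library with no read, so no order among them is given. Of the 10 members only Dlk1, Peg3, Mest and Grb10 had enough reads to be tested.

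**Figure D1:**
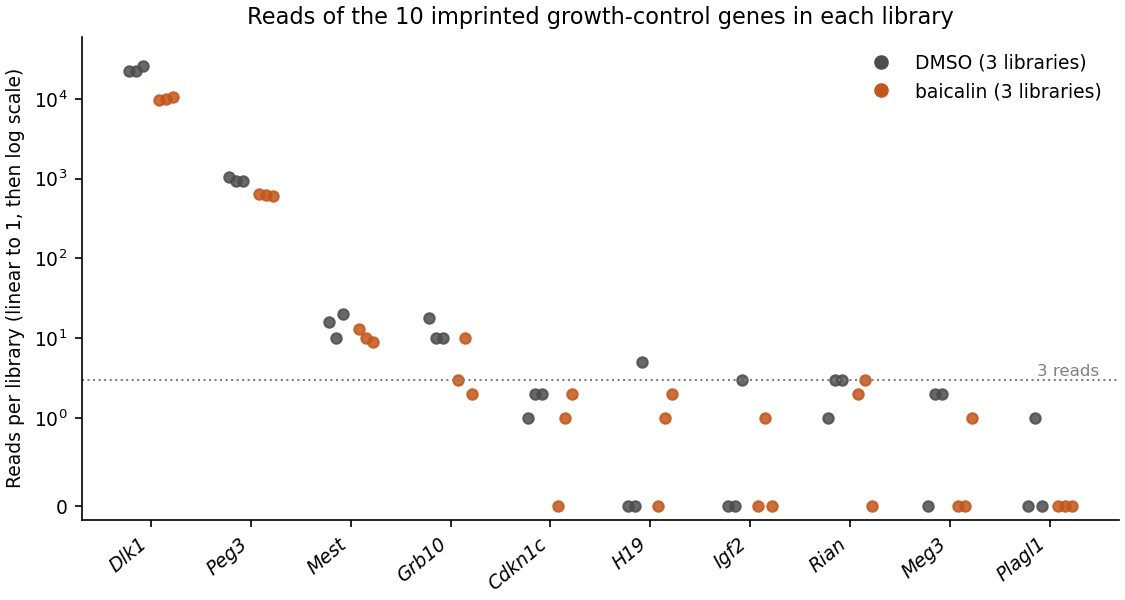
Reads of each member (horizontal axis, ordered by mean FPKM) in each of the 6 libraries, on an axis that is linear up to 1 read and logarithmic above. Dlk1 had between 9714 and 25964 reads, Peg3 between 608 and 1039, and the 6 members at the right never had more than 5 reads in a library.

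Dlk1 (ENSMUSG00000040856, chromosome 12, 109452823 to 109463336, plus strand, mm10) encodes a transmembrane protein of the Notch ligand family whose shed part inhibits fat cell formation. It fell in baicalin and remained the most abundant member. Its reads were 22079, 22251 and 25964 under DMSO, against 9714, 9964 and 10389 under baicalin. All 3 DMSO libraries lay above all 3 baicalin libraries, and DMSO replicate 3 was the highest. In CPM the mean went from 1297 ± 115 to 584 ± 21.1 (SD, n = 3 each), a log2 fold change of -1.15 (SE 0.05), or 2.22-fold lower, with an adjusted p of 9.31e-13 in edgeR's quasi-likelihood test with Benjamini-Hochberg adjustment over all 13728 genes tested. The transcript ranked between 150 and 184 by FPKM among all genes in the DMSO libraries and between 446 and 480 in the baicalin libraries. It took 0.125%, 0.133% and 0.148% of the reads in DMSO and 0.0552%, 0.0544% and 0.0580% in baicalin. Leaving out any library kept the value between -1.20 and -1.08, and the call held each time. Falls were common in this contrast: 34.1% of all tested genes were called lower and 67.7% were called in either direction, and 1333 genes were called lower by at least 2-fold. The CPM of the groups did not overlap for 35.1% of tested genes on the lower side and for 35.1% on the higher side. Among the 4 members tested 3 were called lower (Dlk1, Peg3 and Grb10) and none higher, and 2 of them, Dlk1 and Peg3, had groups that did not overlap. Grb10 passed the filter on low counts through the DMSO libraries alone, and its call was lost under 7 of 14 alternatives.

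Peg3 (ENSMUSG00000002265, chromosome 7, 6703892 to 6730431, minus strand) encodes a large zinc finger protein that takes part in stress and cell death signalling. It had 1039, 932 and 919 reads under DMSO, against 647, 622 and 608 under baicalin. The groups of Peg3 did not overlap, as was so for 35.1% of tested genes on the lower side. Its level fell from 53.3 ± 2.96 to 36.5 ± 2.12 CPM (SD, n = 3 each), a log2 fold change of -0.55 (SE 0.06, adjusted p = 4.48e-11). Peg3 has 13324 bases of annotated exons, against 5657 of Dlk1. With trends on transcript length and on GC content removed together from each library, the log2 fold change was -0.20 (adjusted p = 0.0035). On the same correction Dlk1 stood at -1.23.

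Grb10 (ENSMUSG00000020176, chromosome 11, 11930508 to 12038683, minus strand) encodes an adaptor that binds the insulin and IGF1 receptors and damps their signal. It had 18, 10 and 10 reads under DMSO, against 3, 10 and 2 under baicalin, and baicalin replicate 2 matched the lower DMSO libraries in reads. The log2 fold change was -1.25 (SE 0.52, adjusted p = 0.0304), and in CPM the groups overlapped. Grb10 passed the filter on low counts through the DMSO libraries alone. Leaving out DMSO replicate 1 ended the call (-0.92, adjusted p = 0.191). So did leaving out baicalin replicate 1, at an adjusted p of 0.111, or baicalin replicate 3, at -0.87 and an adjusted p of 0.182. DESeq2 did not call it (adjusted p = 0.177). Leaving out baicalin replicate 2 gave -2.18. In all 7 of 14 alternatives ended the call.

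Mest (ENSMUSG00000051855, chromosome 6, 30723547 to 30748465, plus strand) encodes a membrane-bound protein of the alpha/beta hydrolase family that rises in expanding fat. It had 16, 10 and 20 reads under DMSO, against 13, 10 and 9 under baicalin. The groups overlapped, and the log2 fold change of -0.44 (SE 0.41, adjusted p = 0.34) was not called. Exons of Mest overlap those of Copg2, on the opposite strand, over 912 bases. Copg2 had 7563 reads in all against 78 of Mest, so without the strand setting the few reads of Mest cannot be told apart from reads of Copg2. Copg2 itself was higher by a log2 fold change of 0.16 (adjusted p = 0.00439), a call lost with scaling by library size alone (0.033).

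**Figure D2:**
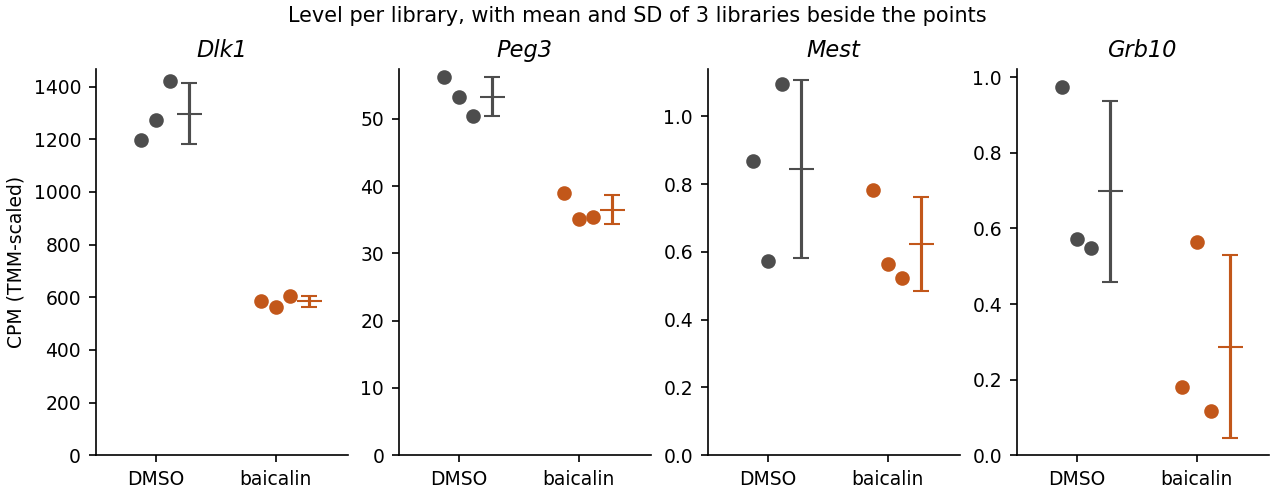
CPM of the 4 tested members in each library (points), with the mean and SD of 3 libraries beside them, on axes that start at 0. The DMSO and baicalin libraries are apart for Dlk1 and Peg3 and overlap for Mest and Grb10, whose axes reach only about 1 CPM.

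H19, Meg3 and Rian are maternally expressed long non-coding RNAs, abundant in the embryo and reduced in most adult tissues. H19 (ENSMUSG00000000031, chromosome 7, 142575529 to 142578143) had 0, 0 and 5 reads under DMSO, against 0, 1 and 2 under baicalin. Igf2 (ENSMUSG00000048583, chromosome 7, 142650766 to 142666816), the paternally expressed growth factor gene that shares its enhancers with H19, had 0, 0 and 3 reads under DMSO, against 0, 1 and 0 under baicalin. The highest counts of both genes were thus in DMSO replicate 3. The endothelial markers Pecam1 (0, 0 and 5 reads in DMSO, 0, 2 and 1 in baicalin) and Cdh5 (0, 0 and 3 in DMSO, 3, 0 and 1 in baicalin) also had reads in that DMSO library and in no other DMSO library. At such counts no difference between the groups was detectable, and the part of endothelial RNA in the reads of H19 and Igf2 was not tested. Igf2os, whose exons overlap those of Igf2 over 98 bases on the opposite strand, had 91 reads in all and was not called (log2 fold change -0.088, adjusted p = 0.852). Its value was 0.23 without baicalin replicate 1 and -0.37 without baicalin replicate 2.

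Plagl1 (ENSMUSG00000019817, chromosome 10, 13060504 to 13131694) encodes a zinc finger transcription factor that regulates other imprinted genes, and it had 1 read, in DMSO replicate 2. Cdkn1c (ENSMUSG00000037664, chromosome 7, 143458339 to 143461050) encodes the cyclin-dependent kinase inhibitor p57. It had 1, 2 and 2 reads under DMSO, against 0, 1 and 2 under baicalin. The groups of Cdkn1c overlapped, and every library was below 3 reads. With no filter on low counts all 10 members entered the fit, and Dlk1 and Peg3 were the 2 that were called. Of all 27246 genes in that fit 4656 were called lower and 4911 higher. The hairpin genes Mir675 in H19, Mir483 in Igf2, Mir335 in Mest and Mir770, Mir341 and Mir370 of the chromosome 12 cluster had no read in any library, in libraries made from poly-A RNA that do not capture mature miRNAs.

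In the chromosome 12 cluster Dlk1 was the only abundant transcript. Meg3 (ENSMUSG00000021268, 109541001 to 109571726), which starts 88.2 kb downstream of the Dlk1 start, had 0, 2 and 2 reads under DMSO, against 0, 0 and 1 under baicalin. Rian (ENSMUSG00000097451, 109603940 to 109661716), a host of small nucleolar RNAs, had 1, 3 and 3 reads under DMSO, against 2, 3 and 0 under baicalin. For neither did the groups separate. Among the other genes of the cluster the paternally expressed retrotransposon-derived Rtl1 had 18 reads over the DMSO libraries and 10 over the baicalin libraries. Mirg and Dio3 had 1 read each, in DMSO. Ratios of Dlk1 to Meg3, of Meg3 to Rian and of Igf2 to H19 are not given, since each has a term at or under the limit of 3 reads in most libraries.

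**Figure D3:**
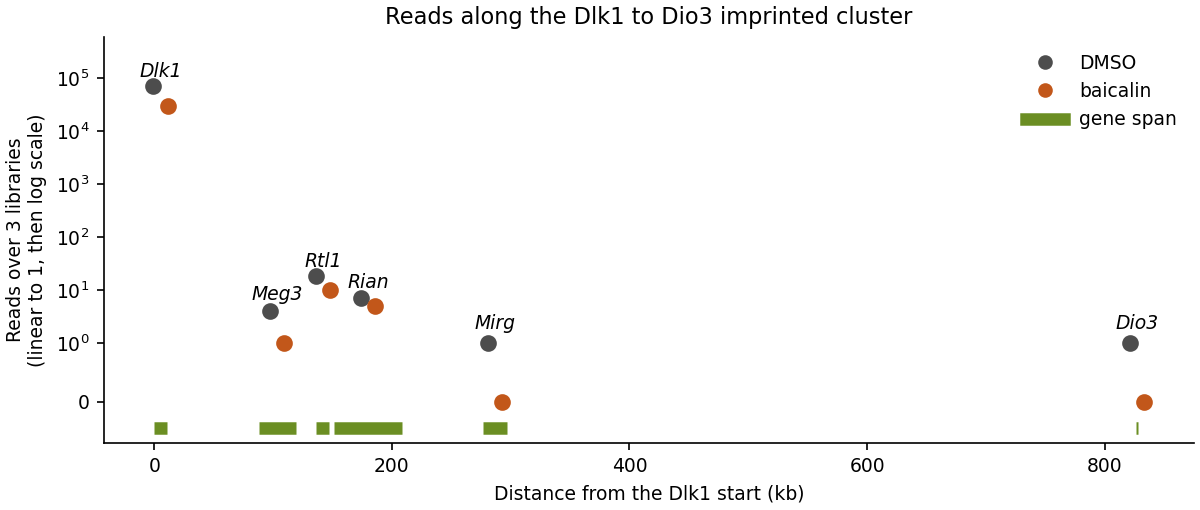
Reads summed over the 3 libraries of each group (vertical axis, linear to 1 and logarithmic above) for 6 genes of the cluster, placed by distance from the Dlk1 start in kb. Points for DMSO and baicalin are set apart sideways for legibility. Dlk1 had 70294 and 30067 reads and no other gene had more than 18.

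Other imprinted genes were followed as 2 further lists, 27 paternally and 33 maternally expressed genes, several of which are imprinted in particular tissues only. Of the 20 paternally expressed genes tested 14 were lower, 2 were higher and 4 were not called, with a median log2 fold change of -0.41. Over all tested genes the median was 0.0014 and 34.1% were called lower. With length and GC trends removed 12 were lower and 4 higher, where 4308 of all 13714 tested genes were lower and 4544 higher. Nap1l5 passed the filter only through DMSO. Of the 16 maternally expressed genes tested 6 were lower, 7 higher and 3 not called, with a median of 0.087, where 33.6% of all tested genes were called higher. With scaling by library size alone 4 were higher and 6 lower, where over all 13728 genes tested 3472 were called higher and 5811 lower. With length and GC trends removed 9 of these 16 were higher and 5 lower. The difference between the lists was not tested.

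Peg10, a paternally expressed gene derived from a retrotransposon, stood near the level of Dlk1 in these cells, at 220 FPKM on average in DMSO and 118 in baicalin. Its reads were 26974, 24667 and 27287 under DMSO, against 13931, 12844 and 12953 under baicalin. The groups of Peg10 did not overlap, as was so for 35.1% of tested genes on the lower side. Its log2 fold change was -0.91 (SE 0.04, adjusted p = 1.19e-20). Its neighbour Sgce, which shares the imprinting control region and is transcribed the other way, fell by 0.21 on the log2 scale, but stood at 0.41 with length and GC trends removed, so that its direction depended on that step. The long antisense RNAs that silence neighbouring genes on the paternal copy fell. Airn had 560, 558 and 598 reads under DMSO, against 116, 178 and 167 under baicalin (log2 fold change -1.82, adjusted p = 1.16e-21). Kcnq1ot1, of the domain that holds Cdkn1c, had 499, 535 and 507 reads under DMSO, against 143, 162 and 151 under baicalin (-1.68), and stood at -0.51 with length and GC trends removed. Fewer genes had any read in the baicalin libraries, from 19057 to 19833 against 21020 to 21374 in DMSO. The part of that in the falls of Airn and Kcnq1ot1 was not tested.

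Further paternally expressed genes that were lower included the neuronal proteolipid gene Nnat (log2 fold change -1.19), the docking protein gene Gab1 (-0.93), Impact (-0.83) and the ubiquitin ligase gene Mkrn3 (-0.72). Zrsr1 (-0.53), the amino acid transporter gene Slc38a4 (-0.52), Peg13 (-0.31) and Ndn (-0.27) were lower as well. Nap1l5 was called lower too (-2.63), from 15, 16 and 10 reads under DMSO, against 0, 5 and 1 under baicalin. It passed the filter on low counts only through DMSO. Inpp5f was at -0.18 (0.026 with length and GC trends removed), and its call was lost under 10 of 17 alternatives. Snrpn (0.45), which encodes a spliceosome protein and shares 589 exon bases with Gm38393, and Mcts2 (0.53) were higher. Mcts2 is a retrogene copy and is therefore uncertain. Usp29, the neighbour of Peg3, had between 12 and 25 reads per library and was not called (0.42, adjusted p = 0.283), but was called higher with length and GC trends removed (0.97).

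**Figure D4:**
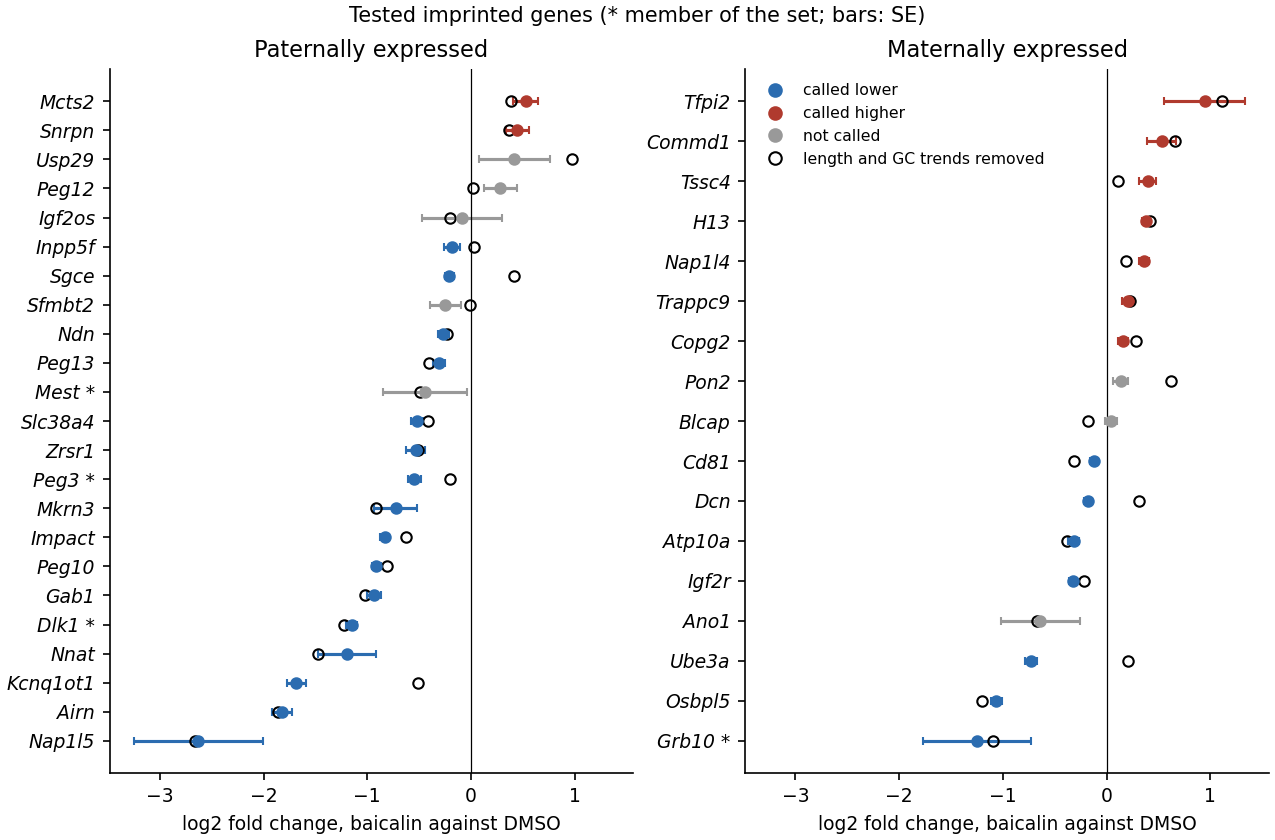
Log2 fold change of baicalin against DMSO (horizontal axis) with its SE for each tested imprinted gene, paternally expressed at the left and maternally expressed at the right, with members of the set starred. Open circles show the value with length and GC trends removed, which lie on the other side of 0 for, among others, Sgce, Inpp5f, Dcn, Ube3a and Blcap.

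Among the maternally expressed genes tested outside the set, the largest fall was that of Osbpl5, a lipid transfer protein gene of the Cdkn1c domain. It went from 96.7 ± 2.88 to 46.2 ± 3.56 CPM (SD, n = 3 each), or -1.06 on the log2 scale. Igf2r, which encodes the receptor that removes IGF2 and lies opposite Airn, had 15856, 15599 and 15487 reads under DMSO, against 11793, 11545 and 12277 under baicalin (-0.32). Atp10a (-0.32) and the tetraspanin gene Cd81 (-0.12) were lower as well, the latter not called when baicalin replicate 3 was left out (adjusted p = 0.0772). Ube3a (-0.73) and the proteoglycan gene Dcn (-0.18) were called lower, but were called higher with length and GC trends removed (0.21 and 0.31). Ube3a overlaps the antisense Snhg14 over 1803 exon bases, and Tssc4 overlaps Trpm5 over 220, so their reads are uncertain. Nap1l4 (0.36) and Tssc4 (0.40), of the Cdkn1c domain, were higher, and the call of Tssc4 was lost with length and GC trends removed (0.11). Commd1 (0.53), H13 (0.38) and Trappc9 (0.21) were higher too, the last not with library size alone (0.08, adjusted p = 0.2). Tfpi2 was called higher (0.95, adjusted p = 0.0288) from 8 to 22 reads per library, and the call was lost under 8 of 14 alternatives.

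Several of these genes hold an imprinted partner in an intron. Trappc9 was at 0.21 and its paternally expressed intronic partner Peg13 at -0.31. Commd1 was at 0.53 and Zrsr1 at -0.53, with exons that overlap over 412 bases on opposite strands, so that reads there cannot be told apart. H13 and Mcts2 were both higher, at 0.38 and 0.53. Nnat fell by 1.19 on the log2 scale inside Blcap, which was not called (0.039, adjusted p = 0.563) and stood at -0.18 with length and GC trends removed and at -0.088 with library size alone. Mcts2 and Peg13 lie on the same strand as their hosts, and the part of unspliced host RNA in their reads was not tested. The differences within these pairs were not tested.

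Transcripts of IGF receptors and binding proteins were detected, while Igf2 itself had 4 reads in all. Of 15 genes for IGF receptors, binding proteins, their proteases and IGF2 mRNA-binding proteins 13 were tested, with 10 lower and 3 higher and a median log2 fold change of -0.34, where 34.1% of all tested genes were lower. Igf1r, the signalling receptor, went from 119 ± 3.37 to 80.6 ± 3.16 CPM (SD, n = 3 each, -0.57), and stood at -0.21 with length and GC trends removed. Insr, the insulin receptor gene, was lower by -0.13 but higher, at 0.23, with length and GC trends removed. Igf1, the ligand of the same receptor, had 53, 52 and 58 reads under DMSO, against 0, 3 and 4 under baicalin (-4.40, SE 0.44), and passed the filter only through DMSO. Pappa and Pappa2, proteases that free IGFs from their binding proteins, fell by 1.80 and 1.37 on the log2 scale. Igfbp5 was lower (-0.67) while Igfbp4 (0.41) and Igfbp6 (0.39) were higher, the last a call lost with length and GC trends removed (0.11). Igfbp7 was at 0.16, and at -0.13 with those trends removed. The fetal mRNA-binding protein genes Igf2bp1 (-0.34) and Igf2bp2 (-0.37) were lower, and Igf2bp3 was at -0.15, or 0.059 with the trends removed. Igf2bp3 and Igfbp7 overlap Malsu1 and Polr2b on the opposite strand over 1529 and 85 exon bases.

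For the partners and relatives of GRB10 8 of 9 genes were tested, with 3 lower and 2 higher (median -0.10), where 34.1% and 33.6% of all tested genes were lower and higher. With library size alone 6 were lower, where 5811 of all 13728 tested genes were lower. With length and GC trends removed 4 were higher, where 4544 of 13714 tested genes were. Irs1, a docking protein of the insulin and IGF1 receptors, fell by 1.81 on the log2 scale and Irs2 rose by 0.76, each with no overlap between the groups. Groups did not overlap for 35.1% of tested genes on the lower side and for 35.1% on the higher side. Gigyf1, named for its binding to GRB10, was at -0.62 and the ubiquitin ligase gene Nedd4, which also binds GRB10, at -0.59, or -0.28 with length and GC trends removed. Rptor was higher (0.27). Grb14, a relative of Grb10, had 530, 477 and 504 reads under DMSO, against 433, 448 and 448 under baicalin. It was not called (-0.11, adjusted p = 0.184) and stood at 0.33 with length and GC trends removed. Grb7 had no read.

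Of 15 genes around DLK1, which are its shedding enzyme, Notch receptors and ligands and the factors of fat cell formation that it restrains, 14 were tested, with 5 lower, 5 higher and 4 not called (median 0.11), where 67.7% of all tested genes were called. Adam17, the enzyme that releases soluble DLK1, had 2397, 2316 and 2327 reads under DMSO, against 2671, 3022 and 2884 under baicalin (log2 fold change 0.36, adjusted p = 1.25e-10). Sox9, a target through which DLK1 holds back fat cell formation, went from 52.7 ± 0.243 to 36.4 ± 1.27 CPM (SD, n = 3 each, -0.54). Notch2, the most abundant of these Notch receptor genes, was lower (-0.62), as were Notch1 (-0.88) and Jag1 (-0.66), while Notch3 (0.93) and the Notch target Hes1 (1.61) were higher. Hes1 had 49, 75 and 72 reads under DMSO, against 157, 218 and 196 under baicalin. Of the fat cell factors Cebpb (1.05) and Cebpd (0.88) were higher, Pparg was lower (-0.35), and Cebpa was at 0.68 and not called (adjusted p = 0.0579), though it passed with the stricter filter on low counts (adjusted p = 0.0499). Exons of Adam17, Cebpb and Cebpd overlap Iah1, Tmem189 and Spidr on the opposite strand.

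By the smallest distance between log2 CPM profiles centred over the 6 libraries, out of 9835 candidate genes, the genes most like Dlk1 were Ccdc85a (distance 0.125), Thsd7a (0.131) and Zfp521 (0.147). Those most like Peg3 were Rab7 (0.0672), Wrn (0.0748) and Ahnak2 (0.0819). For Mest, with few reads, they were Tmem53 (0.216), Mfap1a (0.242) and Enpp1 (0.243). With 6 libraries in 2 groups such likeness is mostly a like difference between the groups.

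**Figure D5:**
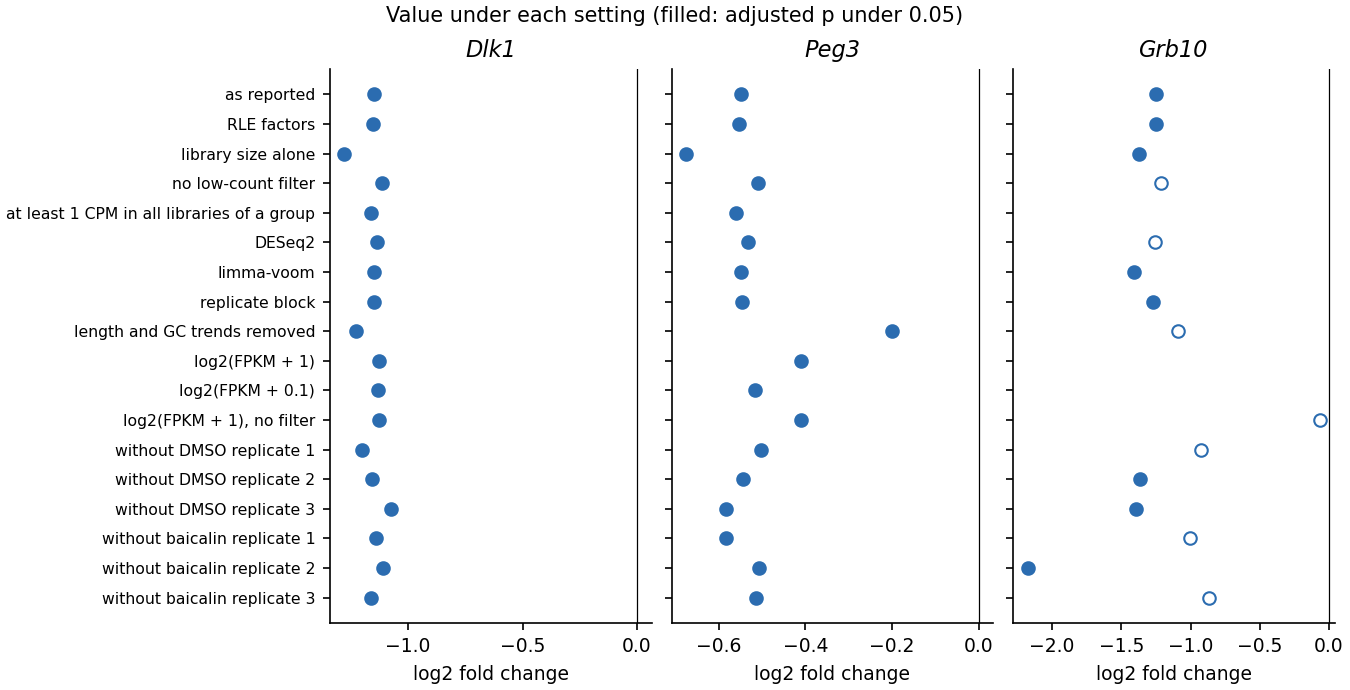
Log2 fold change of Dlk1, Peg3 and Grb10 (horizontal axes, each to its own scale) under each setting of the analysis (vertical axis), filled where the adjusted p was under 0.05. Dlk1 stayed between -1.28 and -1.08 and was called throughout, Peg3 ranged from -0.68 to -0.20, and Grb10 lost its call under 7 settings and could not be fitted under 3 that require a higher level.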

How the data were processed

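The 6 libraries were prepared from poly-A RNA with a NEBNext Ultra kit, as the labels' protocols say. Per the series design text, the deposited counts are reads per gene from featureCounts (1.5.0-p3), and the authors derived FPKM from these counts and the length of each gene. Per the submitters' processing notes the genome build was mm10. The aligner, the annotation and whether counting used strand were not given in the sources used here, so overlapping opposite-strand genes are uncertain. Coordinates, exon lengths and transcript GC came from GENCODE M21, on the mm10 assembly, which holds 54495 of the 54532 identifiers. Promoter windows came from RefSeq, and their motifs were searched on both strands.

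Differences were tested by edgeR's quasi-likelihood test (edgeR 4.0.16, R 4.3.3; filterByExpr, TMM, robust fit), whose model held the treatment alone. A gene is called where its p, adjusted by Benjamini-Hochberg over the 13728 genes tested, was below 0.05. Unless another tool is named, adjusted p-values are those of edgeR, and SEs were derived from its F statistics. CPM values are TMM-scaled. The test was checked on simulated counts for baicalin against DMSO (13509 genes), where it called 52.0% of genes changed 1.2-fold, 72.0% at 1.5-fold and 98.0% at 2-fold, with 9 false calls. The simulation gave all genes the same spread beyond counting error and changed 50 genes at each fold, in random directions. Its figures therefore do not carry over to the real contrast, where 67.7% of tested genes were called. Replicates differed by more than sampling noise (chi-square per degree of freedom from 2.71 to 4.13). The columns all matched a sample.

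The members and gene lists were chosen with earlier results of these data known. The rule for named genes takes the members, all genes of marker lists and of lists with up to 10 genes, the 8 largest called changes at 1 CPM or more of longer lists, a fixed list of further genes and genes that overlap a member. Outside it, and named after their values were seen, are Blcap, Cd81, Dnmt3l, Igfbp7, Inpp5f, Mcts2, Nap1l5, Peg13, Slc38a4, Snrpn, Tfpi2 and Trappc9. Likeness of profiles used log2(CPM + 0.5) and genes of at least 5 CPM. Alternatives were DESeq2 1.42.0, limma-voom and limma-trend (limma 3.58.1), RLE factors, library size alone, other filters on low counts, a replicate block, lowess trends (span 0.3) on length and GC removed, log2(FPKM + 1) and log2(FPKM + 0.1), and each library left out. Figures were drawn with matplotlib 3.10.9.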

Additional observations from a re-analysis of the deposited data

How the results depend on the processing

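Of 93 genes of the set and its lists followed under 17 alternatives, 1467 of 1547 values kept their direction and their side of the threshold, and Dlk1 and Peg3 were called lower under every alternative run. Grb10 was not called with no low-count filter (-1.21), DESeq2 (-1.26), length and GC trends removed (-1.09) or log2(FPKM + 1) without a filter (-0.062), and leaving out a library gave -2.18 to -0.87. With length and GC trends removed, values turned for Blcap (-0.18), Ccnd2 (0.013), Cdkn1a (-0.068), Dcn (0.31), Grb14 (0.33), Igf2bp3 (0.059), Igfbp7 (-0.13), Inpp5f (0.026), Insr (0.23), Sgce (0.41) and Ube3a (0.21), and 4 paternally expressed genes outside the set were called higher instead of 2. Removing those trends also left 9 maternally expressed genes outside the set higher instead of 7. Over all genes tested the median moved from 0.0014 to -0.13 with library size alone, and to -0.12 with no filter and -0.14 with DESeq2, which take in more low genes. Calls split into 3472 higher and 5811 lower with library size alone, against 4618 and 4676. That scaling also turned Blcap (-0.088) and left 4 maternally expressed genes higher instead of 7. Leaving out a baicalin library put Igf2os between -0.37 and 0.23. Ratios between members of a cluster were not run. With the replicate number as a block, Dlk1 (-1.15), Peg3 (-0.55) and Grb10 (-1.27) were again called lower. Grb10 passed the filter on low counts only through DMSO. Whether the numbers pair the libraries is not known. The correlations of same-numbered libraries were 0.035, 0.037 and -0.0024, and not every library correlated best with its own number. Such values show no clear pairing but cannot exclude it. Depth limits what can be said of the 6 members with at most 5 reads in a library.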

Other observations

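Of 16 genes that maintain, place or erase imprinting marks 15 were tested, with 8 lower and 4 higher in baicalin and a median log2 fold change of -0.24. Over all tested genes 34.1% were called lower, 33.6% higher and 67.7% in either direction. With library size alone 2 were higher, where 3472 of all 13728 tested genes were higher. Zfp445 and Zfp57, the zinc finger proteins that hold methylation at imprinted control regions, were lower. Zfp445 had 2536, 2561 and 2524 reads under DMSO, against 879, 974 and 918 under baicalin (log2 fold change -1.39, edgeR adjusted p = 2.42e-31), and Zfp57 went from 21.4 ± 2.32 to 13.9 ± 2.28 CPM (SD, n = 3 each, -0.62). Their corepressor gene Trim28 was at 0.20, a call lost with library size alone (adjusted p = 0.0667) and with length and GC trends removed (adjusted p = 0.357). The maintenance methyltransferase gene Dnmt1 was higher (0.28), the de novo methyltransferase gene Dnmt3a lower (-1.04), and Tet2 and Tet3, which oxidise methylcytosine, lower (-0.98 and -0.91, or -0.50 and -0.61 with length and GC trends removed). Dnmt3l, a cofactor of de novo methylation, had 2, 0 and 0 reads under DMSO, against 16, 11 and 26 under baicalin, and passed the filter only through baicalin. Ctcf, whose protein insulates Igf2 from its enhancers, was not called (-0.12, adjusted p = 0.0531), but was called lower under 6 of 17 alternatives. DNA methylation was not measured.

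Among the relatives and partners of CDKN1C, all 10 tested, 3 rose and 3 fell (median log2 fold change 0.0090, with 67.7% of all tested genes called). With library size alone 1 rose and 4 fell, where 3472 of all 13728 tested genes were called higher and 5811 lower. With length and GC trends removed 1 rose as well and 2 fell, where 4544 of 13714 tested genes were called higher and 4308 lower. Cdkn1b, which encodes p27, had 3281, 2949 and 3129 reads under DMSO, against 1994, 2135 and 2097 under baicalin (-0.51). Cdkn1a, which encodes p21, was at 0.13, and at -0.068 with length and GC trends removed. Ccne1 was higher (1.08) and Pcna lower (-0.27). Ccnd2 was at -0.20, and at 0.013 with those trends removed. Of 4 proteins that act with PEG3 or in its cell death pathway, the transcripts of Trp53 (0.62), Traf2 (0.28) and Bax (0.28, or 0.024 with the trends removed) were higher. Over all tested genes 33.6% were called higher and 34.1% lower. With the trends removed 2 of these 4 were called higher and 0 lower, where 4544 of 13714 tested genes were called higher and 4308 lower. Siah1a was at the threshold (-0.16, adjusted p = 0.0496), a call lost under 12 of 17 alternatives.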
